A study of Homo sapiens with 76 samples.

Results

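Transcripts of the genes for eukaryotic translation initiation factors (eIFs) were described in single HEK293 cells, an established line derived from human embryonic kidney. All rows of the count table whose symbol opens with EIF and a digit were taken, and symbols ending in P or in P and a number were left out, since most of those are processed pseudogenes. This rule matched 75 rows, left out 22 and kept 53 of 17513 genes. Of the 53, 16 belong to the eIF2 group, 15 to eIF3, 12 to eIF4 and 10 to the other factors (eIF1, eIF1A, eIF5, eIF5A, eIF5B and eIF6 with their relatives). By name only, 7 members were matched: both antisense RNA genes, the kinase genes EIF2AK1 to EIF2AK4 and EIF4ENIF1. A mean of 1 UMI per cell was reached by 34 members (6 of eIF2, 12 of eIF3, 9 of eIF4 and 7 of the other factors), and 19 stayed below it. The ending also removed EIF4EBP1 and EIF4EBP2, which encode proteins that bind the cap-binding factor and are no pseudogenes; they are described near the end with other regulators of initiation.

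Initiation brings the small ribosomal subunit and the initiator tRNA to the start codon. eIF2 carries the initiator tRNA as a complex with GTP, eIF2B reloads it with GTP, and kinases that phosphorylate eIF2 slow this reloading under stress. eIF3 is a large scaffold on the small subunit, the eIF4 proteins bind the cap and unwind the leader of the mRNA, and eIF1, eIF1A, eIF5 and eIF5B act in start codon selection and subunit joining. Several genes of this apparatus begin with a terminal oligopyrimidine tract, a run of C and T at the very start of the transcript, through which growth signals control the translation of ribosomal protein mRNAs.

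All 76 cells carry the same labels: HEK293, grown in DMEM with fetal calf serum and glutamine, captured on a Fluidigm C1 chip with ERCC spike-in RNA added at 20000 molecules per cell, with no treatment and no compared group. Unique molecular identifiers (UMIs), tags that let copies of 1 cDNA be counted once, were read at the 5' ends of transcripts primed with oligo-dT. No replicate culture is named, so every value after ± is an SD over the 76 cells, no test was made, and correlations are given without p-values. A cell held 7305 to 43392 endogenous UMIs, with a median of 20966, and 5 cells lay under 10483, the median divided by 2. As each UMI stands for 1 molecule read at its 5' end, levels of different genes were compared in UMIs per cell with no division by length. Coding length and mean UMIs still had a rho of -0.333 over 2554 genes tested and -0.268 over 34 members. The part of length in differences between genes was not tested. Markers of other cell types and of the labelled origin were summed where they had a row. Neuronal genes (5 of 7 had a row) gave 584 UMIs in all (UCHL1 in 70 cells, NEFM in 49, MAP2 at 0). Kidney epithelial genes (3 of 7) gave 163 (KRT18 in 45 cells, KRT8 in 19, EPCAM in 1). Blood and immune genes (2 of 6) gave 16, fibroblast and muscle genes (3 of 6) 16 and liver genes (2 of 4) 1.

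The start regions of 9 genes are shown because their annotated transcripts open with a pyrimidine tract, the feature that ribosomal protein genes share. Each line has the 20 bases before the annotated start and the first 10 bases of the transcript, 5' to 3' on the gene's own strand, from RefSeq promoters of build GRCh38.p14, with the tract in capitals.
EIF3D, chr22:36529157-36529186, minus strand: ccgctgcgcgcgcatgtttcCTCTTTTCCT
EIF3F, chr11:7987317-7987346, plus strand: gtcatttccgcttccgcctcCTTCTTTCTC
EIF3K, chr19:38619168-38619197, plus strand: gtcgtttccgtttccaccacCTCTTCCTgt
EIF3M, chr11:32583811-32583840, plus strand: gcgtcgcgcggcccagttccCTTTTCCggt
EIF2S3, chrX:24054936-24054965, plus strand: cagccggggtgatttccttcCTCTTTTggc
EIF2A, chr3:150546767-150546796, plus strand: aactctcacccgagcggtttCTCTTTCCgg
EIF2D, chr1:206612456-206612485, minus strand: gccctggtttccagccgggcCCTTTTCgcg
EIF4A2, chr3:186783557-186783586, plus strand: gggtggttgggcgccgctgtCTTTTCagtc
EIF4B, chr12:53006436-53006465, plus strand: cgtgattgcctcatccgggtCTTTTgcgtt
For contrast, the most abundant gene of the family and the cap-binding factor gene open otherwise.
EIF1, chr17:41688865-41688894, plus strand: aacacaggcaccgcccctctgccccagtca
EIF4E, chr4:98929124-98929153, minus strand: cccccccttctggagcggttgtgcgatcag

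A tract was counted where the base at +1, the annotated start, was C and at least 4 more bases of C or T followed; only the gene's own strand was read. This definition was chosen after the sequences had been seen, as the stricter of 2 that were tried. It was found in 9 of the 42 members with a promoter in the RefSeq table (21.4%), and in 8 of the 27 with a mean of at least 1 UMI. Among the 2142 promoters of all genes tested that had a match it was found in 199 (9.29%), among all 27305 promoters in 1104 (4.04%), and among 66 ribosomal protein genes in 42 (63.6%). Of the eIF3 genes with a promoter, those for subunits d, f, k and m had it, and those for b, c, i and j did not. A match describes these letters at an annotated start; whether these cells used that start was not tested.

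Together the 53 genes gave 62 to 505 UMIs per cell with a median of 211.5, or 1.04% ± 0.128 of a cell's endogenous UMIs. The eIF3 genes led with 26 to 219 UMIs (median 84), which was 0.420% ± 0.0711 of endogenous UMIs. The other factors gave 16 to 180 UMIs (median 75, 0.371% ± 0.0743). Both stood clear of the remaining groups: in all 76 cells eIF3 and the other factors each had more UMIs than eIF4 and more than eIF2. The eIF4 genes gave 9 to 84 UMIs (median 27.5, 0.147% ± 0.0444) and the eIF2 genes 3 to 58 UMIs (median 23.5, 0.107% ± 0.0335). The order within each pair was less fixed, with eIF3 above the other factors in 54 cells and eIF4 above eIF2 in 56.

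**Figure D1:**
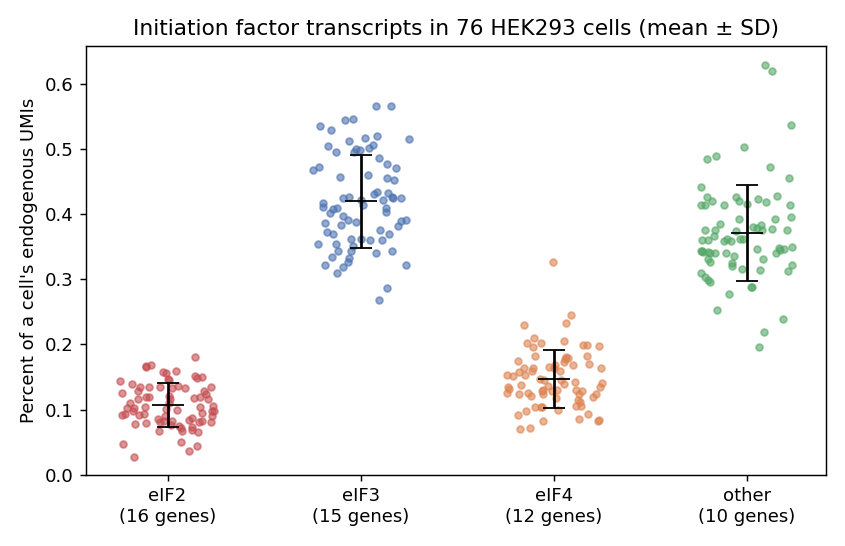
Percent of a cell's endogenous UMIs (y axis) from each group of initiation factor genes (x axis); each point is 1 of 76 cells, the black bar is the mean and the whiskers are 1 SD over cells. The clouds of eIF2 and eIF4 overlap, as do those of eIF3 and the other factors, and the highest eIF4 value, 0.326%, belongs to 1 shallow cell.

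The groups differed in how evenly their members contributed. EIF1 alone gave 46.8% of the UMIs of the other factors, while the leading gene gave 36.6% for eIF2 (EIF2S2), 22.6% for eIF4 (EIF4A1) and 16.2% for eIF3 (EIF3I). Over the whole family EIF1 held 16.6% of UMIs, the first 9 genes 55.4% and the first 19 genes 80.9%. Every member had a UMI in at least 1 cell and 6 had one in every cell: EIF1, EIF5A, EIF3I, EIF3E, EIF3M and EIF4G2. A single cell showed 24 to 42 members, with a median of 34.

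**Figure D2:**
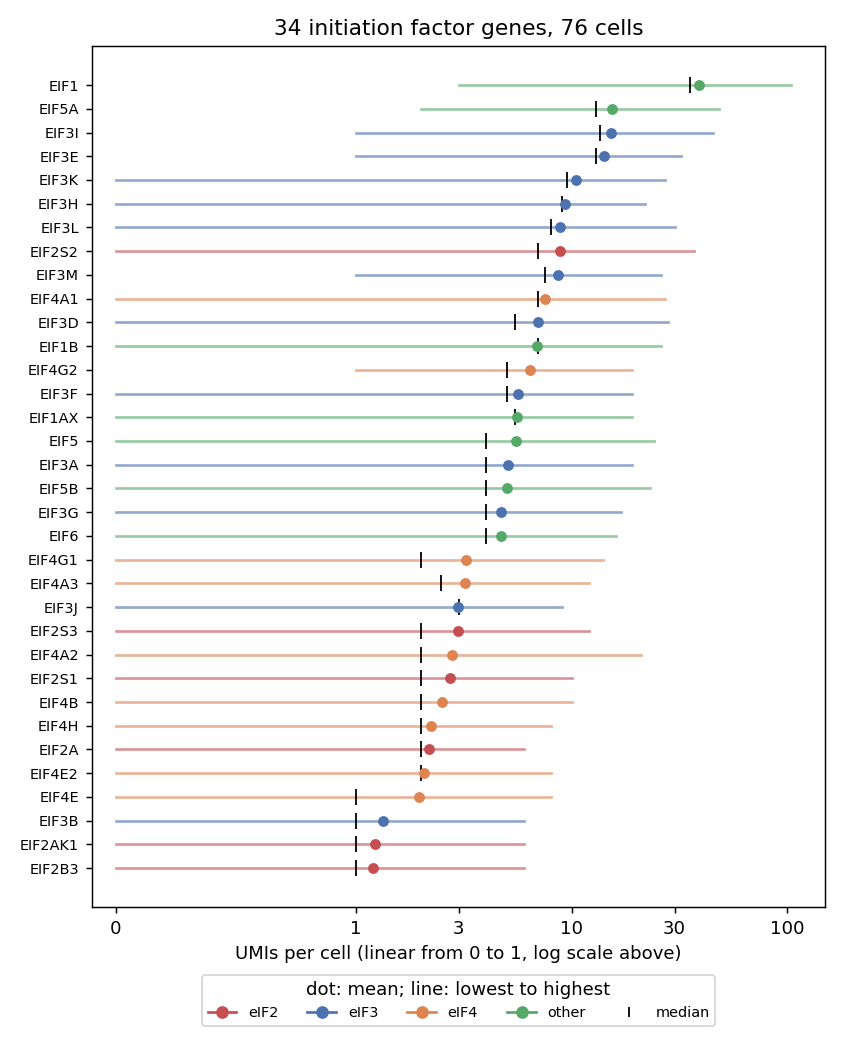
UMIs per cell (x axis, linear from 0 to 1 and logarithmic above) for the 34 members that averaged 1 UMI or more (y axis), ordered by mean. Dots are means, ticks are medians and lines run from the lowest to the highest of 76 cells; EIF1 stands apart at a median of 35.5, and 28 of the 34 lines reach 0.

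Of the genes for start codon selection, EIF1 encodes the small factor that keeps the scanning ribosome open until a start codon is met. It gave 3 to 104 UMIs with a median of 35.5 (38.8 ± 18.1), ranked 101 among all genes, and exceeded its closely related paralog EIF1B in all 76 cells. EIF1B gave 0 to 26 UMIs (median 7, 6.93 ± 5.30), so that EIF1 made up 84.8% of the UMIs of the pair (exact 95% interval 83.6% to 86.0%, counting error only). EIF1AX, the X-linked gene for eIF1A, which works with eIF1 in scanning, gave 0 to 19 UMIs (median 5.5). No cell had more EIF1AX than EIF1. EIF5, whose product makes eIF2 hydrolyse its GTP, gave 0 to 24 UMIs (median 4), and EIF5B, the GTPase of subunit joining, 0 to 23 (median 4). These genes of successive steps were level: EIF5 made up 52.2% of the UMIs of EIF5 and EIF5B (48.7% to 55.7%), with EIF5 higher in 37 cells and EIF5B in 28.

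EIF5A and EIF6 carry initiation factor names but act mainly elsewhere. EIF5A, which helps ribosomes past difficult stretches of sequence, gave 2 to 48 UMIs with a median of 13 (15.5 ± 9.23) and was present in every cell. Its paralog EIF5A2 was seen in 14 cells, and EIF5A made up 98.3% of the UMIs of both (97.4% to 99.0%). EIF6, which keeps the large ribosomal subunit from joining early and serves in its maturation, gave 0 to 16 UMIs (median 4). EIF5AL1, a near copy of EIF5A, was seen in 7 cells and EIF1AD in 18; reads of EIF5A and its copies may have been divided among them.

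The 3 subunits of eIF2 were unequal at the transcript level. EIF2S2, for the beta subunit, gave 0 to 37 UMIs with a median of 7 (8.80 ± 6.29). EIF2S3, for the gamma subunit that binds GTP and tRNA, gave 0 to 12 (median 2, 2.97 ± 2.48), and EIF2S1, for the alpha subunit that the kinases phosphorylate, 0 to 10 (median 2, 2.74 ± 2.33). EIF2S2 was above EIF2S1 in 69 cells and above EIF2S3 in 66, whereas the means of EIF2S1 and EIF2S3 differed by less than the SD of either. The 3 pseudogenes of EIF2S2 that have rows gave 14, 4 and 0 UMIs, beside 669 for EIF2S2. How reads that fit both were assigned is not given.

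The regulators of eIF2 were sparse. The 5 eIF2B subunit genes together gave 0 to 14 UMIs (median 4), and only EIF2B3 passed a mean of 1 UMI (1.21 ± 1.45, seen in 44 cells). EIF2B1, EIF2B4, EIF2B2 and EIF2B5 were seen in 38, 35, 34 and 27 cells. The 4 kinase genes together gave 0 to 8 UMIs (median 2), and 63 cells had a UMI of at least 1 of these genes. EIF2AK1, which encodes the heme-regulated kinase, was seen in 49 cells (1.24 ± 1.25 UMIs). EIF2AK2, for the kinase activated by double-stranded RNA, was seen in 27 cells, EIF2AK4, for the amino acid sensor, in 18, and EIF2AK3, for the kinase of the endoplasmic reticulum, in 5 (6.58% of cells, exact 95% interval 2.17% to 14.7%). Depth limits what such counts show: they give cells with a UMI, not cells that express the gene. EIF2A and EIF2D, which can deliver initiator tRNA without eIF2, were seen in 57 and 24 cells.

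Of the 15 eIF3 rows, 12 passed a mean of 1 UMI, and their means ran from 15.2 to 1.34 UMIs. EIF3I led with 1 to 45 UMIs (median 13.5, 15.2 ± 8.26), followed by EIF3E with 1 to 32 (median 13, 14.1 ± 7.60). EIF3I was the higher in 38 cells and EIF3E in 33, so the order of these 2 was not fixed. EIF3K (median 9.5), EIF3H (9), EIF3L (8) and EIF3M (7.5) came next, with EIF3D (5.5), EIF3F (5), EIF3A and EIF3G (4 each) behind. EIF3J, for a loosely bound subunit, gave 0 to 9 UMIs (median 3), and EIF3B, for a core scaffold subunit, 0 to 6 (median 1, 1.34 ± 1.45). EIF3I and EIF3B encode partners in the same module, yet EIF3I had more UMIs in 75 of 76 cells. Genes of the octamer (a, c, e, f, h, k, l and m) gave 14 to 152 UMIs per cell, and those of the module of b, g and i 4 to 59.

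EIF3C, an essential octamer subunit gene, had 5 UMIs in all and its near-identical copy EIF3CL had 3. How the authors treated reads that fit both is not given in the sources used here, so these counts say nothing of the level of the eIF3c transcript. EIF2S3L was seen in 3 cells and is uncertain in the same way. The antisense RNA genes EIF3J-AS1 and EIF2B5-AS1 were seen in 5 cells and 1 cell; whether counting used strand is not given, so their UMIs cannot be told from those of EIF3J and EIF2B5.

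Among the eIF4 genes, those of the cap-binding complex eIF4F were unequal. EIF4A1, for the main RNA helicase of initiation, gave 0 to 27 UMIs with a median of 7 (7.57 ± 5.46). EIF4G1, for the scaffold that links cap, helicase and eIF3, gave 0 to 14 (median 2, 3.24 ± 3.26), and EIF4E, for the cap-binding subunit, 0 to 8 (median 1, 1.96 ± 2.22). EIF4E had no UMI in 27 cells, as 49 of 76 showed one (64.5%, exact 95% interval 52.7% to 75.1%). EIF4A1 lay above EIF4E in 64 cells and above EIF4G1 in 59. EIF4E was level with EIF4E2, whose product binds the cap in repression: EIF4E made up 48.7% of the UMIs of both (42.97% to 54.4%).

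Relatives of the complex were unequal too. EIF4A1 made up 73.1% of the UMIs of EIF4A1 and EIF4A2 (69.8% to 76.1%), a pair of closely related helicase genes, and was the higher in 65 cells against 6. EIF4A3, whose helicase belongs to the exon junction complex, gave 0 to 12 UMIs (median 2.5). EIF4G2, for a scaffold that lacks the cap-binding arm, was above EIF4G1: it had 1 to 19 UMIs (median 5, 6.41 ± 4.61), and EIF4G1 made up 33.6% of the UMIs of both (30.1% to 37.1%). EIF4G3 was seen in 42 cells, EIF4E3 in 14 and EIF4ENIF1, for a protein that carries eIF4E to the nucleus and to sites of mRNA decay, in 18. The helicase cofactor genes EIF4B and EIF4H both had a median of 2 UMIs. Pseudogene EIF4A1P10, left out by its ending, had 76 UMIs in all, beside 575 for EIF4A1, and how reads that fit both were assigned is not given.

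Spread between cells was modest. The Pearson dispersion sets a gene's counts against those expected from each cell's total, and counting noise alone gives 1. Members that averaged 1 UMI or more had a median dispersion of 2.04 (1.30 to 2.98, 34 genes), beside 1.76 over all 2810 genes tested and 1.53 for 36 spike-in RNAs. These sets differ in abundance. At a mean of 1 to 3 UMIs the medians were 1.45 for 12 members and 1.64 for all genes. At 3 to 10 UMIs they were 2.09 (17 members) and 1.87, and at 10 or more 2.23 (5 members) and 2.61. Of the 34, 11 (32.4%) exceeded the highest spike-in, 2.20, as did 606 of all genes tested (21.6%). Without the 5 shallow cells the highest spike-in itself rose to 2.30. That limit was exceeded by 6 of 34 members (17.6%), beside 17.9% of all genes. The share of members above the limit is therefore not a stable count.

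**Figure D3:**
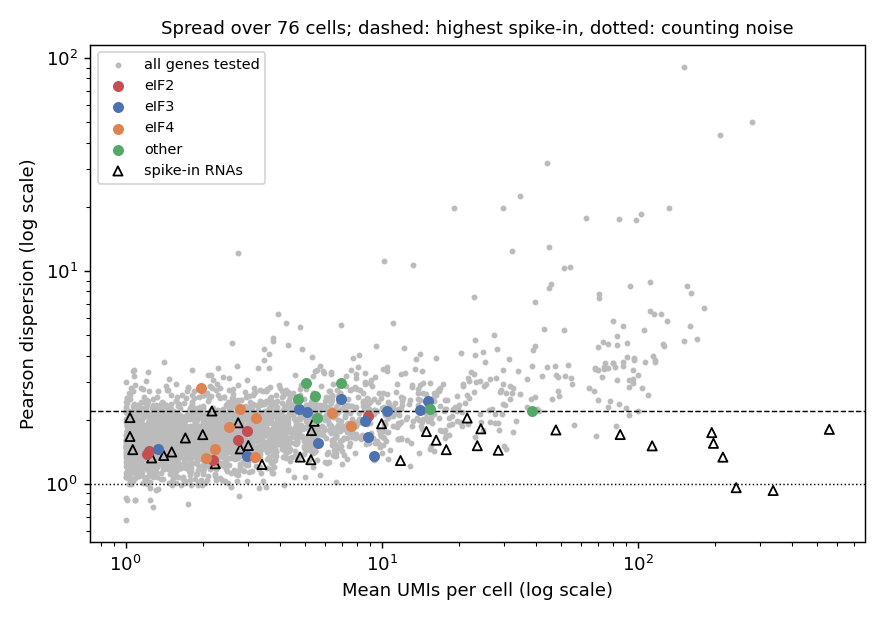
Pearson dispersion over 76 cells (y axis, log scale) against mean UMIs per cell (x axis, log scale) for initiation factor genes by group, all genes tested and spike-in RNAs. The dashed line is the highest spike-in at 2.20, and the members lie between 1.30 and 2.98 within the cloud of other genes.

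The members of highest dispersion were EIF1B (2.98), EIF5B (2.96), EIF4E (2.82), EIF5 (2.59), EIF6 (2.49), EIF3D (2.49), EIF3I (2.45), EIF3G (2.25), EIF5A (2.25), EIF4A2 (2.24) and EIF3E (2.23). Just below the limit lay EIF1 (2.19) and EIF3K (2.19). The lowest were EIF2A (1.30), EIF4E2 (1.32) and EIF4A3 (1.33). The values of EIF1B and EIF4E rested on the cell numbered 32, a shallow one with 8272 endogenous UMIs, of which 16 were EIF1B and 8 EIF4E. Without that cell, picked for its high values, EIF1B had 2.12 and EIF4E 1.97. In the separate setting without all 5 shallow cells, EIF5B, EIF5, EIF6, EIF3D, EIF3I and EIF5A stayed above 2.30, the highest spike-in there. By group, 0 of 6 eIF2 genes, 4 of 12 eIF3, 2 of 9 eIF4 and 5 of 7 other factors exceeded the limit; the groups were not compared at matched abundance.

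Summed over a group, the spread beyond counting noise was a coefficient of variation of 20.9% for eIF2, 20.8% for eIF4, 14.2% for the other factors and 12.5% for eIF3, and 8.97% for the family as a whole. Spike-in RNAs with a mean of 20 to 100 UMIs had 9.07% to 21.9% (6 RNAs). These were not matched to the groups in abundance, and the family, with a median of 211.5 UMIs, lay above their means. The Pearson dispersion of the sums was 2.06 for eIF2, 2.46 for eIF3, 2.45 for eIF4, 2.66 for the other factors and 2.88 for the family. The 17 spike-ins with a mean of 10 UMIs or more had 0.930 to 2.04. The value for eIF2 was thus close to the highest of these, and the other sums lay above it. A measure that does not use the cell's total is each group's share of the initiation factor UMIs of the cell. That share was 40.2% ± 4.94 for eIF3 (30.6% to 51.4%), 35.4% ± 4.41 for the other factors, 14.1% ± 3.66 for eIF4 and 10.3% ± 3.38 for eIF2 (2.44% to 19.3%). Its dispersion, where 1 is binomial noise, was 2.46 for eIF4, 2.43 for eIF2, 2.14 for eIF3 and 1.67 for the other factors.

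Genes of 1 complex showed little correlation from cell to cell. Over the 561 pairs of the 34 members the mean Spearman rho of their shares was 0.0160, beside 0.0140 over all pairs of genes tested. It was 0.0208 for the 66 pairs of eIF3 genes, 0.0514 for the 36 eIF4 pairs, 0.0135 for the 15 eIF2 pairs and 0.0129 for the 21 pairs of the other factors. A rho of 0.3 or more was reached by 0 of the 66 eIF3 pairs, by 9 of all 561 member pairs (1.60%) and by 1.16% of all gene pairs. Ribosomal protein genes, which are more abundant, had a mean of 0.173 and reached it in 23.8% of pairs. Counting noise pulls such values toward 0 in rare transcripts. Among genes with a mean of 3 to 16 UMIs the mean was 0.0209 over 210 member pairs and 0.0127 over all pairs of genes. The highest member pairs, picked after their values were seen, were EIF1B with EIF4A2 (0.402) and the helicase genes EIF4A1 with EIF4A3 (0.376), and the lowest EIF2A with EIF4E2 (-0.384).

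As sums, the eIF3 genes and the other factors were related over the 76 cells (rho = 0.384), while eIF2 with eIF3 (-0.150), eIF2 with eIF4 (-0.0754), eIF2 with the other factors (-0.114), eIF3 with eIF4 (-0.0265) and eIF4 with the other factors (0.0963) were weakly or not related. These shares share a denominator. Scaled by spike-in UMIs, where a cell's RNA content enters both values, all 6 were positive (0.589 to 0.842).

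Relations were computed for 34 members and 9 cell measures, so single values are read against the share of all genes past the same size. The eIF4 share was lower in cells with a higher share of ribosomal protein transcripts, which took 18.6% to 36.4% of UMIs (rho = -0.511, 76 cells). Of the 9 eIF4 genes, 4 had a rho of -0.3 or less: EIF4A3 (-0.350), EIF4G1 (-0.349), EIF4H (-0.320) and EIF4A2 (-0.301). No other member did, which makes 4 of 34, beside 289 of 2810 genes tested (10.3%). A count of 0 members reached 0.3 upwards, where 3.27% of genes did. The calls of single genes depended on the setting. Thinning cut each cell to 10940 UMIs in a single random draw, and lower counts bring more counting noise, which pulls rho toward 0. The part of this noise in the values with cells thinned, here and below, was not tested. With cells thinned the 4 genes had -0.163 (EIF4A3), -0.258 (EIF4G1), -0.242 (EIF4H) and -0.227 (EIF4A2), so none of them kept its call, and given the share of UMIs from long coding genes they had -0.187 (EIF4A3), -0.0884 (EIF4G1), -0.216 (EIF4H) and -0.220 (EIF4A2). On a total free of ribosomal protein and mitochondrial genes EIF4G1 alone of the 4 stayed past -0.3 (-0.325). The eIF3 share leaned the other way (rho = 0.256), and the other factors (0.0109) and eIF2 (-0.109) showed little.

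Several cell measures moved with this relation, and their part in it was not tested. The eIF4 share had a rho of 0.319 with the share of UMIs from genes with a coding length of at least 1500 bases, a measure with which the ribosomal protein share had -0.716. It also had 0.285 with endogenous UMIs and 0.407 with the share of S phase genes (0.255 with cells thinned). Given the share of long coding genes, the rho of eIF4 with ribosomal protein genes was -0.427. On a total free of ribosomal protein and mitochondrial genes it was -0.375, with cells thinned -0.409 and without the shallow cells -0.538. Scaled by spike-ins it turned to 0.665, and 27 of 34 members then had a rho of 0.3 or more with ribosomal protein UMIs. A cell's RNA content enters both values on that scale, and the share of all genes past 0.3 was not computed there.

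**Figure D4:**
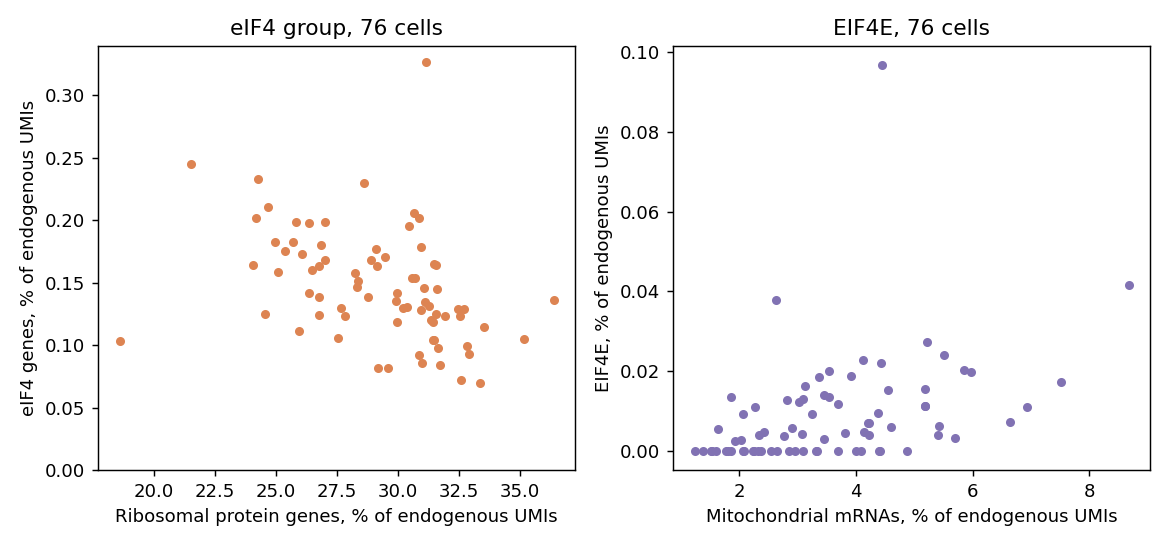
Left, the eIF4 share (y axis) against the share of ribosomal protein genes (x axis), both in percent of endogenous UMIs, 1 point per cell (76 cells, rho = -0.511). Right, the share of EIF4E against that of mitochondrial mRNAs (rho = 0.521); the highest point is the shallow cell numbered 32, and 27 cells lie at 0.

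Coding length, taken in place of transcript length after the data were seen, is given beside level and this relation. Over the 34 members, whose coding lengths run from 339 to 4797 bases, length and mean UMIs had a rho of -0.268, beside -0.333 over the 2554 genes tested with a length. Length against each gene's rho with the ribosomal protein share gave -0.295 over the members, -0.678 over the 12 eIF3 genes and -0.407 over all genes. Thus EIF3I (975 bases) had a rho of 0.256 with ribosomal protein genes and EIF3A (4146 bases) -0.297. Members with a pyrimidine tract had a median rho of -0.0865 with the ribosomal protein share (8 genes) and those without -0.182 (19 genes). Members without a promoter entered neither set, and both medians lay below that of all 34 members, -0.0562. Over other genes the medians were -0.0476 with a tract (149 genes) and -0.0984 without (1900 genes).

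Mitochondrial mRNAs, 1.24% to 8.68% of a cell's UMIs, gave the widest split among members, as they did over all genes tested (-0.704 to 0.943). EIF4E had a rho of 0.521 with their share and EIF3E 0.359. EIF3J (-0.426), EIF5B (-0.423), EIF2S2 (-0.382), EIF5 (-0.364) and EIF5A (-0.343) lay at the other end. That makes 2 of 34 upwards and 5 of 34 downwards, beside 4.23% and 6.30% of all genes tested. With cells thinned it was 1 upwards and 3 downwards, and the share of all genes was not computed in that setting. There EIF3E had 0.272, EIF5 -0.298 and EIF5A -0.196, while EIF3J (-0.453), EIF2S2 (-0.351) and EIF5B (-0.327) stayed at -0.3 or less. As a sum, eIF2 had a rho of -0.400, the other factors -0.115, eIF3 -0.166 and eIF4 0.102. EIF4E had a rho of 0.394 with cells thinned, 0.501 without the shallow cells and 0.506 on the total free of ribosomal protein and mitochondrial genes. EIF4E is a gene of 1.96 UMIs per cell, so its value rests on few molecules. Scaled by spike-ins, the 5 lower genes had rho values of -0.0138 for EIF3J and of 0.0651 to 0.182 for the others.

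**Figure D5:**
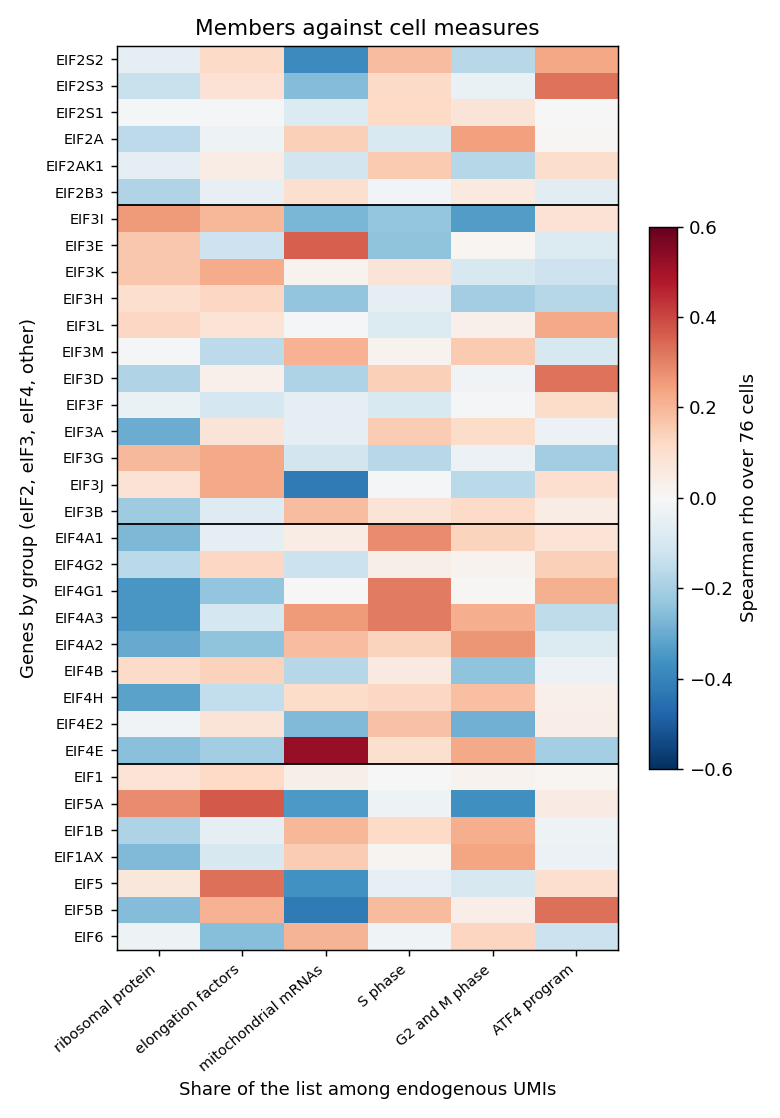
Spearman rho over 76 cells between the share of each member that averaged 1 UMI or more (rows, by group and then by mean) and the share of 6 gene lists (columns); red is positive and blue negative. The eIF4 rows are mostly blue for ribosomal protein genes, and the deepest red field is EIF4E with mitochondrial mRNAs.

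Relations to the cell cycle and to stress were few. The S phase share had a rho of 0.3 or more with EIF4A3 (0.311) and EIF4G1 (0.310), 2 of 34, beside 5.34% of genes, and of 0.407 with eIF4 as a sum. With cells thinned EIF4A3 had 0.116, EIF4G1 0.146 and the eIF4 sum 0.255, all under 0.3. Against the share of G2 and M phase genes, EIF5A (-0.368) and EIF3I (-0.336) lay at -0.3 or less, 2 of 34 beside 1.64% of genes. With cells thinned 0 of 34 did (share of all genes not computed), as EIF5A had -0.164 and EIF3I -0.195. With the ATF4 program, the target genes that eIF2 phosphorylation switches on, EIF5B (0.330), EIF3D (0.326) and EIF2S3 (0.324) reached 0.3, 3 of 34 beside 1.99%, and eIF2 as a sum had 0.282. With cells thinned the values were 0.162 for EIF5B, 0.0174 for EIF3D and 0.230 for EIF2S3. With elongation factors, EIF5A (0.367) and EIF5 (0.329) reached 0.3, 2 of 34 beside 3.63%; with cells thinned the values were 0.370 for EIF5A and 0.287 for EIF5. In the opposite directions the counts were 0 of 34 members at -0.3 or less with elongation factors (1.49% of genes), with S phase genes (1.92%) and with ATF4 targets (0.961%), and 0 of 34 at 0.3 or more with the G2 and M phase list (2.53%).

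Members related to depth or to the long coding share were about as frequent as among all genes tested. With a cell's endogenous UMIs, EIF4A3 (0.459), EIF3A (0.327) and EIF3M (0.322) reached 0.3, which is 3 of 34 beside 7.86% of genes, and 0 lay at -0.3 or less (0.854% of genes). With spike-in UMIs only EIF4A3 did (0.336), 1 of 34 beside 3.13%, and 0 lay at -0.3 or less (0.569%). With the long coding share, EIF3A (0.418), EIF4G1 (0.409), EIF4A3 (0.315) and EIF5B (0.303) reached 0.3, 4 of 34 beside 10.6%, and EIF3I lay at -0.331, 1 of 34 beside 3.45%. The part of depth and of the long coding share in the other relations of these genes was not tested.

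Other regulators of initiation, 17 of the 18 listed genes, all had a UMI in some cell. EIF4EBP1, whose product blocks eIF4E when growth signals fail, was the more abundant partner of the pair: it gave 2 to 43 UMIs with a median of 12.5 (13.9 ± 7.48), while EIF4E gave 1.96 ± 2.22. EIF4EBP2 was seen in 31 cells, and EIF4EBP3, also listed, had no row among the counts. PABPC1, for the poly(A)-binding protein that joins the mRNA ends through eIF4G, gave 1 to 52 UMIs (median 19). ATF4, translated when eIF2 is phosphorylated, gave 0 to 22 (median 7). The helicase gene DDX3X (5.25 ± 4.50 UMIs) and MCTS1 and DENR, whose products form a reinitiation factor (5.30 ± 3.49 and 3.61 ± 3.19 UMIs), came next. PAIP2 (2.57 ± 2.49) and ABCE1, for the ribosome recycling factor (2.01 ± 2.09), followed. PDCD4, DHX29, MKNK1, MKNK2, PAIP1, DDIT3, PPP1R15A and PPP1R15B each stayed under 1 UMI per cell, with PPP1R15A, for the phosphatase subunit that reverses eIF2 phosphorylation, in 14 cells.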

How the data were processed

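The authors deposited 1 table of raw UMI counts (whole numbers), with genes in rows and cells in columns. Per the submitters' processing notes, cutadapt 1.2.1, STAR 2.4.0a and the build hg19 (GRCh37) were used; the counter, annotation, strand setting and cell filter are not stated in any source used here. A row called GENE that repeats cell numbers (0.197% of the sum of all values) was left out, which left 17513 genes and 80 spike-in rows. Columns left unmatched to a cell numbered 0, and 0 pairs of cells held identical counts. Computation used Python 3.11.15, numpy 2.4.6, pandas 2.3.3 and scipy 1.17.1.

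Shares are percent of endogenous UMIs. Genes averaging 1 UMI or more were tested for dispersion (34 of 53 members, 2810 genes) and for Spearman rho, counted at a size of 0.3. Intervals are exact Clopper-Pearson and cover counting error only. The dispersion and rho code was tested on simulated data. Coding lengths are those of the principal transcript in GENCODE 29, and promoters are from RefSeq; 42 members had one. Alternatives were other scales, thinning to 10940 UMIs (71 cells), other minimum means, 2 UMIs for detection, tag collisions, Pearson r of log2(UMIs per 10000 + a pseudocount of 1 or 0.1), and cells or members left out. The members and gene lists were chosen with earlier results of these data known. Named genes were all members averaging 1 UMI or more, others by cells with a UMI, plus 18 fixed regulators. Protein sequences were not used here.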

Additional observations from a re-analysis of the deposited data

How the results depend on the processing

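Group shares held within 1 SD under 4 of 5 alternatives; on the total free of ribosomal protein and mitochondrial genes they became 0.164% (eIF2), 0.651% (eIF3), 0.226% (eIF4), 0.574% (other factors) and 1.62% (all), as the smaller total dictates. The highest spike-in was found anew in each setting, so the limit moved along with the counts. Members above it numbered 4 of 41 at a minimum mean of 0.5 (7.51% of genes, limit 2.57). On the spike-in scale they numbered 22 (46.8%), against 11, both with a limit of 2.20. Without shallow cells there were 6 (limit 2.30). At a minimum mean of 3 there were 16 of 22 (49.9%, limit 2.04). With the second highest spike-in as limit (2.05) there were 16 of 34 (29.9%). With cells thinned there were 0, but spike-in counts were not thinned with the genes. Spike-in scaling, which puts the RNA content of each cell into both values, moved most correlations. Between groups it gave 0.637 (eIF2 with eIF3), 0.589 (eIF2 with eIF4), 0.627 (eIF2 with other factors), 0.702 (eIF3 with eIF4), 0.842 (eIF3 with other factors) and 0.767 (eIF4 with other factors). With ribosomal protein genes it gave 0.693 (eIF2), 0.890 (eIF3), 0.813 (other factors) and, with the sign turned, 0.665 (eIF4), 0.462 (EIF4A2), 0.549 (EIF4A3), 0.282 (EIF4G1) and 0.291 (EIF4H). With mitochondrial mRNAs it gave 0.475 (eIF3), 0.574 (eIF4), 0.487 (other factors) and, with the sign turned, 0.256 (eIF2), 0.175 (EIF2S2), 0.0926 (EIF5), 0.182 (EIF5A) and 0.0651 (EIF5B). With the G2 and M phase share it turned to 0.192 (EIF3I) and 0.231 (EIF5A). Given the long coding share, eIF2 with ribosomal protein genes was 0.129, against -0.109. The causes were not tested. The long coding share, the second spike-in limit, the relations and dispersions without shallow cells, cell 32 or the 2 farthest cells were chosen after seeing the data. No paired analysis was possible because the 76 cells form 1 group.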
